A study of Arabidopsis thaliana with 12 samples.

Results

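The effect of losing phytochrome B in a *jaz* quintuple mutant was measured by comparing the 3 RNA-seq libraries of *jazQ phyB* with the 3 of *jazQ*, 6 of the 12 libraries of the series, across all genes. The libraries were chosen by genotype alone. Both genotypes are in Col-0 and carry T-DNA insertions in 5 *JAZ* genes, *JAZ1*, *JAZ3*, *JAZ4*, *JAZ9* and *JAZ10*, as 1 line. *jazQ phyB* also carries *phyB-9*, a null allele that was crossed in. Other differences between the lines compared cannot be told apart from loss of phyB. The other 6 libraries, 3 of WT (Col-0) and 3 of *phyB* (*phyB-9* without the insertions), served only to ask whether the same mutation acted alike without the insertions. Each library pooled about 200 whole seedlings, roots included, aged 8 days, from sucrose-containing solid medium under constant light, with mutants and WT side by side on the same plates. Antenna protein genes of green tissue and root hair, endodermis and root tip markers were all read in every library.

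Phytochrome B is a red light receptor whose active form enters the nucleus and brings about the removal of PIFs, bHLH transcription factors that switch on elongation genes. In shade, or without the receptor, PIFs persist, auxin synthesis and cell wall loosening genes are induced, stems and petioles elongate, flowering comes early and chlorophyll genes are held lower. JAZ proteins repress MYC transcription factors until jasmonate triggers their destruction, so that a plant with fewer JAZ proteins is primed for defense and stays small.

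The *jazQ* libraries held 14338359 to 18297004 counts (median 15408967) and the *jazQ phyB* libraries 15978702 to 22286351 (median 16804513). Levels are given as CPM, in which counts are divided by the total of the library multiplied by its factor from the TMM method. These factors were 0.944 to 0.977 in *jazQ* and 1.01 to 1.04 in *jazQ phyB*. Because the factors differ, the CPM values of a library do not add up to the same total in every library. A floor of 3 counts equalled 0.132 to 0.214 CPM in these 6 libraries and covers counting error only. No pair of libraries of 1 genotype agreed within sampling noise (chi-square divided by its degrees of freedom, 2.25 to 14.7), and each counted as a separate sample. The first principal component of the 6 libraries carried 42.5% of the variance and separated the genotypes. The second carried 22.3% and ran between replicates 2 and 3 within both genotypes. Chloroplast genes took 0.354 to 0.424% of the counts in *jazQ* and 0.41 to 0.427% in *jazQ phyB*.

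The mutated genes were read first. *PHYB* transcript stood at 83.7, 79.9 and 74.5 CPM in *jazQ* and at 56.0, 53.6 and 50.7 CPM in *jazQ phyB*, without overlap (log2 fold change −0.57, SE 0.06, adjusted p = 7.52e-05). The transcript was thus lower but not absent with *phyB-9*, and reads summed over a gene cannot show whether its transcript is intact. Of the 5 *JAZ* genes with insertions, which both genotypes carry, *JAZ10* was called lower (274, 232 and 268 against 213, 204 and 200 CPM, adjusted p = 0.00561), a call that was lost with upper-quartile normalization, on the TPM scale and without each library except *jazQ* replicate 2. *JAZ3* (−0.29, adjusted p = 0.0516), *JAZ9* (−0.30, adjusted p = 0.119), *JAZ4* (0.31, adjusted p = 0.247) and *JAZ1* (0.24, adjusted p = 0.499) gave log2 fold changes that were not called. Reads at *JAZ10* averaged 3.64 CPM in WT and 258 CPM in *jazQ*, those at *JAZ3* 14.8 and 648 CPM, and those at *JAZ9* 75.0 and 82.1 CPM, so the counts of these genes do not show their insertions as a loss of reads. Reads at *JAZ1* (52.3 and 5.48 CPM) and *JAZ4* (5.71 and 2.48 CPM) were fewer in *jazQ* than in WT. Here and later, adjusted p-values come from the quasi-likelihood test of edgeR, adjusted by Benjamini-Hochberg over all 20957 genes tested, and a gene was called higher or lower at an adjusted p below 0.01.

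Loss of phyB in *jazQ* changed 1422 of 20957 genes (6.79%), of which 552 (2.63%) were higher and 870 (4.15%) lower in *jazQ phyB*. These shares over all genes are the background for each count of list members that follows. At an unadjusted p below 0.05 there were 5968 genes. Most changes were small: the median size of a called change was 0.489 on the log2 scale, and 196 genes changed at least 2-fold, 131 of them higher and 65 lower. Lower calls were thus the majority (61.2%) over all sizes, while 33.2% of the calls of at least 2-fold were lower. This split depended on the scaling, with 50.2% lower after upper-quartile normalization and 25.5% lower in a limma fit of log2(TPM + 1), which moved the median of all genes from 0.01 to 0.10. No gene called here had the opposite sign under any alternative. All alternatives use these same libraries, so a change of sign was unlikely for genes already called. Leaving out 1 library cut the total to 643 without *jazQ* replicate 1, 671 without *jazQ phyB* replicate 1, 839 without *jazQ phyB* replicate 2 and 940 without *jazQ* replicate 3. In whole seedlings, more cells of a type and more RNA per cell cannot be told apart, which applies to every result that follows.

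Among called genes without overlap between genotypes, the 12 largest rises are given first. *HFR1*, an atypical bHLH factor that restrains PIFs in shade, rose 12.2-fold, from 5.15, 4.94 and 4.36 CPM in *jazQ* to 60.1, 61.9 and 54.4 CPM in *jazQ phyB* (log2 fold change 3.6, SE 0.12, adjusted p = 5.71e-10). *PIL1*, a bHLH gene of the same kind, rose from 0.174, 0.338 and 0.143 CPM, no more than 5 counts in a library, to 3.38, 3.58 and 2.42 CPM (log2 fold change 3.81, SE 0.39, adjusted p = 4.27e-05). *FT*, which encodes the mobile flowering signal, rose 9.51-fold, from 1.39, 1.56 and 2.14 to 14.9, 16.4 and 16.9 CPM (log2 fold change 3.25, SE 0.17, adjusted p = 1.05e-07). The absence of overlap was part of the rule that chose these genes and is no separate result. The other members of the largest rises were *MRD1* (at most 2 counts in a *jazQ* library, and not called without *jazQ* replicate 1), *FLP1*, *IAA29*, *ACS8*, *CKX1*, *MYB90*, *ST4C*, *SAUR22* and AT4G33720. AT4G33720, annotated as a CAP family protein related to pathogenesis-related proteins, had 0 counts in every *jazQ* library and 0.703, 1.94 and 3.51 CPM in *jazQ phyB*, at least 9.57-fold higher against a floor of 3 counts per library. Its call (adjusted p = 0.00494) was lost without any 1 of the 3 *jazQ* libraries and without *jazQ phyB* replicate 2 or 3.

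Most of the tested regulators that shade is known to induce rose. Of 12 tested members, 7 were called higher and none lower, where 2.63% of all genes were called higher, and the median log2 fold change was 0.72 against 0.01 over all genes. These were *PIL1*, *HFR1*, the helix-loop-helix genes *PRE5* and *KDR*, and the class II homeodomain-leucine zipper genes *ATHB-2*, *HAT1* and *HAT2*. *PRE5*, whose product frees growth-promoting bHLH factors from their inhibitors, rose from 0.579, 0.677 and 0.571 to 3.08, 3.23 and 3.08 CPM (log2 fold change 2.35, adjusted p = 1.44e-05). *HAT2* rose from 39.5, 33.6 and 37.0 to 68.7, 69.4 and 84.9 CPM (log2 fold change 1.02, adjusted p = 6.41e-05). *ATHB-2*, a classical marker of low red to far-red light, rose less, from 10.4, 10.8 and 11.3 to 17.5, 21.1 and 17.8 CPM (log2 fold change 0.80, adjusted p = 0.000147). The smallest calls were *KDR* (0.50, adjusted p = 0.00537) and *HAT1* (0.40, adjusted p = 0.00238). The call for *KDR* was lost without each library except *jazQ phyB* replicate 2, and that for *HAT1* without *jazQ* replicate 1 or *jazQ phyB* replicate 2. *PAR1* (0.70, adjusted p = 0.0176), *PRE1* (0.74, adjusted p = 0.0403) and *ATHB4* (0.67, adjusted p = 0.197) gave values of similar size that did not pass, and *PAR2* (0.11) and *HAT3* (0.02) lay near 0.

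Among the PIF genes themselves, transcripts went the other way or did not pass. *PIF4* stood at 45.3, 51.6 and 32.7 CPM in *jazQ* and 23.3, 28.0 and 20.2 CPM in *jazQ phyB* (log2 fold change −0.86, adjusted p = 0.00164). *PIF7* fell from 15.4, 15.4 and 12.6 to 7.60, 10.4 and 7.80 CPM (log2 fold change −0.76, adjusted p = 0.00167). Both calls were lost without *jazQ* replicate 1 or *jazQ phyB* replicate 1. *PIF1*, *PIF3*, *PIF5* and *PIF6* had log2 fold changes of 0.03, 0.00, 0.11 and 0.31, none of them called. Of 10 photoreceptor genes, *PHYB* was the one called. Of 17 further light regulators, *FHL*, which carries phytochrome A into the nucleus, was higher (log2 fold change 1.14, adjusted p = 0.00107) and the B-box gene *BBX22* lower (−0.60, adjusted p = 0.00109).

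**Figure D1:**
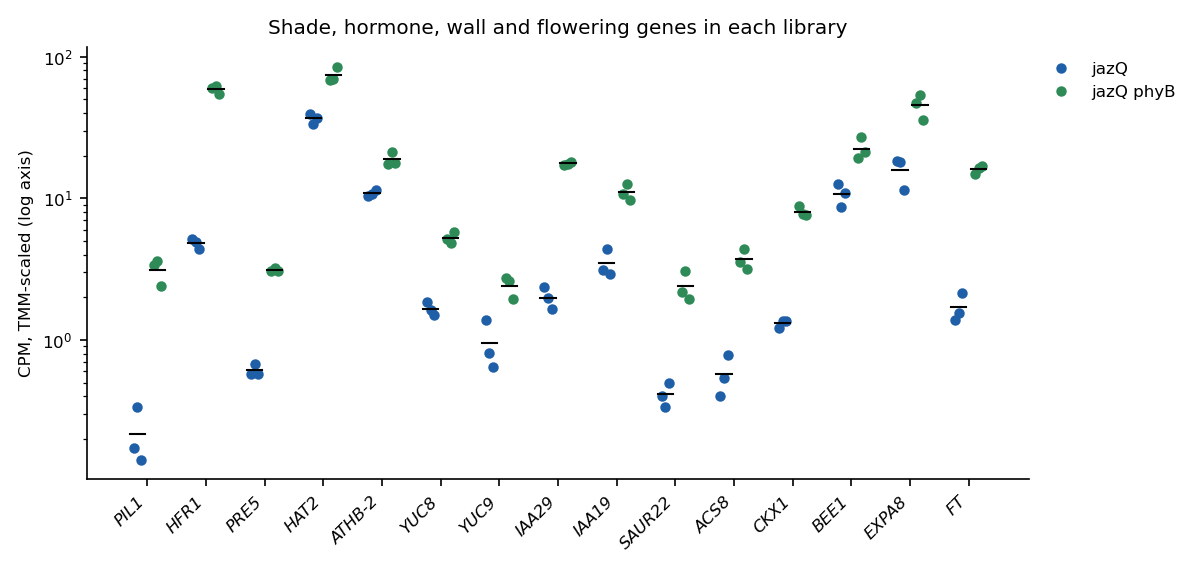
CPM after TMM scaling (log axis) of 15 shade, hormone, cell wall and flowering genes, with 1 point per library (blue *jazQ*, green *jazQ phyB*) and a black bar at the mean of the 3 libraries. The 3 *jazQ phyB* points lie above the 3 *jazQ* points for every gene drawn, with *HFR1* the widest gap among genes above 1 CPM in *jazQ*.

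In auxin synthesis, 2 of 9 tested members were called higher and none lower (median log2 fold change 0.16), both of them YUCCA flavin monooxygenases, which make auxin from indole-3-pyruvate. *YUC8* rose from 1.85, 1.62 and 1.5 to 5.18, 4.82 and 5.80 CPM (log2 fold change 1.65, SE 0.18, adjusted p = 7.36e-05). *YUC9* rose from 1.39, 0.812 and 0.643 to 2.72, 2.58 and 1.93 CPM (log2 fold change 1.32, SE 0.27, adjusted p = 0.00485). Its call was lost without *jazQ* replicate 2 or 3, without *jazQ phyB* replicate 1 or 2, and in a fit of the compared genotypes alone. No other tested member of the synthesis list was without overlap between genotypes.

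PIFs are known to bind the G-box CACGTG and the related element CACATG, so the 300 bases before the annotated start of each gene were searched for both, on both strands (CACGTG reads the same on both, CACATG reads CATGTG on the other). Over 20769 tested genes with a RefSeq gene start, 13.1% held CACATG, 7.95% the G-box and 19.7% at least 1 of them, so that some windows held both. CACATG was in 18.8% of the windows of genes called higher and in 11.2% of those called lower, and the G-box in 7.13% and 9.32%. Of the shade regulators tested, 33.3% (4 of 12) held CACATG and none the G-box. A match is a description of these letters and not of binding. The shade regulators with CACATG included *HAT2* and *KDR*, which were called higher. They also included *PAR2* (log2 fold change 0.11, adjusted p = 0.738) and *HAT3* (0.02, adjusted p = 0.91), which were not called. The windows of *YUC8*, *YUC9*, *HAT2* and *KDR*, called members of both lists that hold the element, are given here 5′ to 3′ on the strand of the gene, with the element in capitals. They are from the RefSeq TAIR10.1 assembly and end at the base before the gene start.
*YUC8*, chr4:14192269-14192568, plus strand: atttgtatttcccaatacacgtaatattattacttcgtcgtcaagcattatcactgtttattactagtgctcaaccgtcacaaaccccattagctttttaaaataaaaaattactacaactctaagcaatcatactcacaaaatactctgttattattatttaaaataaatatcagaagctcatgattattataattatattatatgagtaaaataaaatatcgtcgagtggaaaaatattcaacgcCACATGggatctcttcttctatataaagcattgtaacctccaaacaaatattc
*YUC9*, chr1:1104193-1104492, plus strand: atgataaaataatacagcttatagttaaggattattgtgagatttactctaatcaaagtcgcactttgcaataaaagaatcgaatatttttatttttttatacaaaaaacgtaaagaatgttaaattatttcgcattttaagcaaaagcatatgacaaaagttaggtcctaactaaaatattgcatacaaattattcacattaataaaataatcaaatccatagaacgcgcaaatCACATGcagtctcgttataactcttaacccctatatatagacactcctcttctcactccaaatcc
*HAT2*, chr5:19218008-19218307, minus strand: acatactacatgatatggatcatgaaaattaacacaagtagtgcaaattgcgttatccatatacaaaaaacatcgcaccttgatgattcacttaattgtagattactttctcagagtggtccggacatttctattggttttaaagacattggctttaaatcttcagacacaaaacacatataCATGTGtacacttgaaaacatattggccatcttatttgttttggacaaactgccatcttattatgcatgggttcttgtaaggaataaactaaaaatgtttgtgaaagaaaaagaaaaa
*KDR*, chr1:9350860-9351159, plus strand: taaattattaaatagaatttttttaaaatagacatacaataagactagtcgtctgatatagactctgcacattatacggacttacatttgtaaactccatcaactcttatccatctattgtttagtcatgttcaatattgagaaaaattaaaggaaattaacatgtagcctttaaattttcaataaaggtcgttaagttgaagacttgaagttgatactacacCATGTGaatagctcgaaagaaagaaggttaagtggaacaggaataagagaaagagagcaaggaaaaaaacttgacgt
The element begins 53 bases before the start of *YUC8* and 65, 118 and 77 bases before those of *YUC9*, *HAT2* and *KDR*. The windows of *HFR1*, *PIL1*, *IAA29*, *ATHB-2*, *HAT1*, *PRE5* and *FT* held neither element. Bases farther upstream or within the genes were not searched.

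Of 25 tested Aux/IAA genes, which encode short-lived repressors that auxin induces, 5 were called higher and none lower (median 0.16, 23 of 25 above 0). Over all genes tested, 2.63% were called higher. *IAA29* rose 8.71-fold, from 2.37, 1.96 and 1.64 to 17.1, 17.5 and 18.1 CPM (log2 fold change 3.12, SE 0.17, adjusted p = 1.05e-07). *IAA19* rose from 3.13, 4.40 and 2.93 to 10.8, 12.5 and 9.67 CPM (log2 fold change 1.66, adjusted p = 0.000188), and *IAA1* from 13.2, 13.6 and 9.78 to 20.6, 21.9 and 19.3 CPM (log2 fold change 0.75, adjusted p = 0.00041). The abundant *IAA7* and *AXR3* rose by less (0.50 and 0.29). Among the SAUR genes, small auxin-induced proteins that promote cell expansion, 5 of 14 were called higher and none lower (median 0.73). *SAUR22* (0.405, 0.338 and 0.50 against 2.20, 3.06 and 1.93 CPM), *SAUR23* (log2 fold change 1.94) and *SAUR19* (1.45) led these. *SAUR19* to *SAUR24* are near-identical copies, so the division of reads among them is uncertain. *GH3.5* (0.90, adjusted p = 0.00148) and *GH3.3* (0.80, adjusted p = 0.00962), enzymes that conjugate auxin to amino acids, were the members called among 7 genes of auxin inactivation. The call for *GH3.3* was lost without each library in turn.

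Other growth hormones were touched at single steps. *ACS8*, which makes the ethylene precursor ACC, rose from 0.405, 0.541 and 0.785 to 3.56, 4.41 and 3.14 CPM (log2 fold change 2.69, SE 0.28, adjusted p = 5.13e-05), and *ACS5* rose by 1.14 (adjusted p = 0.00317, lost without *jazQ* replicate 1 or 2 and without *jazQ phyB* replicate 1 or 2). *CKX1*, a cytokinin-degrading oxidase, rose from 1.22, 1.35 and 1.36 to 8.79, 7.70 and 7.56 CPM (log2 fold change 2.62, SE 0.22, adjusted p = 9.09e-06). Ethylene synthesis thus had 2 of 10 members higher, and the cytokinin list 3 of 15, with *CKX5* (0.65) and the response regulator *ARR16* (1.01) besides. The share called higher over all genes was 2.63%, and in lists this short it rests on few genes. In the brassinosteroid list 3 of 17 were higher: the bHLH gene *BEE1* (1.04, adjusted p = 0.00231), the cytochrome P450 gene *ROT3* (0.46, adjusted p = 0.00485) and the transcription factor gene *BES1* (0.30, adjusted p = 0.00697). *BEE1* lost its call without *jazQ* replicate 2 or *jazQ phyB* replicate 2, and *ROT3*, *BES1*, *CKX5* and *ARR16* theirs in at least 3 of the 6 fits that left out 1 library. None of 8 gibberellin oxidases and none of 8 DELLA and GID1 genes passed, with *GA3OX1* (0.34, adjusted p = 0.198) and *GID1A* (−0.30, adjusted p = 0.0144) the nearest.

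Some genes that loosen and remodel the cell wall were called higher. Of 29 tested xyloglucan endotransglucosylase/hydrolase (*XTH*) genes, 9 were called higher and 1, *XTH6*, lower (median log2 fold change 0.26, 9 of 29 below 0), where 2.63% and 4.15% of all genes were. *XTH4* rose from 423, 426 and 424 to 597, 626 and 555 CPM (log2 fold change 0.48, adjusted p = 0.000204), *XTH19* by 0.89 (adjusted p = 0.000296) and *XTH15* by 0.76 (adjusted p = 0.000335). Of 22 expansin genes, 5 were higher and none lower (median 0.41, 7 of 22 below 0). *EXPA8* rose from 18.4, 18.0 and 11.3 to 46.6, 53.4 and 35.6 CPM (log2 fold change 1.5, adjusted p = 5.32e-05) and *EXPA11* from 19.1, 20.2 and 19.2 to 30.3, 30.7 and 32.6 CPM (0.68, adjusted p = 1.25e-05). The counts fell to 5 *XTH* genes without *jazQ phyB* replicate 1, and to 3 expansins without *jazQ* replicate 1 or 2. None of 9 cellulose synthase genes passed (median 0.04), with *CESA4* the nearest (0.20, adjusted p = 0.246). None of 28 cyclin genes passed either (median 0.08).

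Some of these wall genes are genes of roots, and root markers moved with them. Of 10 root hair markers, 5 were called higher and none lower (median 0.81), where 2.63% of all genes were called higher. Their summed level was 70.0 to 114 CPM in *jazQ* and 147 to 172 CPM in *jazQ phyB*. *EXPA18*, which is both an expansin and a root hair gene, rose from 5.15, 5.08 and 6.28 to 9.01, 9.52 and 11.2 CPM (log2 fold change 0.85, adjusted p = 0.000457). In WT, loss of phyB gave the root hair list a median of 0.10 with no call. The difference between the backgrounds (the interaction, defined below) was called for 1 of the 10 markers, *MRH6*. That call was lost in 13 of 21 alternatives. In *jazQ*, *MRH6* rose by 1.21 (adjusted p = 0.00052) and the wall protein gene *LRX1* by 0.86 (adjusted p = 0.00362). The count of root hair markers was 2 without *jazQ* replicate 1, *jazQ* replicate 2 or *jazQ phyB* replicate 1, 3 without *jazQ phyB* replicate 2 and 8 without *jazQ* replicate 3. Of 9 endodermis markers, 3 were higher (median 0.44, summed level 67.2 to 77.7 against 84.1 to 105 CPM), among them *MYB36*, the master regulator of the Casparian strip (0.65, adjusted p = 0.00277), and *CASP1* (0.61, adjusted p = 0.00389). That count was 1 without *jazQ* replicate 1 or 2 and 0 without *jazQ* replicate 3 or *jazQ phyB* replicate 1 or 2. In WT, loss of phyB gave the endodermis list a median of 0.45 with 2 called higher, and the interaction was called for none. Between *jazQ* and *jazQ phyB*, none of 7 root tip markers passed, at 37.1 to 45.4 against 43.5 to 46.3 CPM summed. No marker in these lists was at 0 in any of the 6 libraries, and the part of root tissue in the rises of wall genes was not tested.

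Photosynthesis genes were lower as a group. Of 20 nuclear genes for antenna proteins, which bind chlorophyll and gather light, 13 were called lower and none higher, where 4.15% of all genes were called lower. Their median log2 fold change was −0.64, all 20 were below 0, and their summed level was 38693 to 51694 CPM in *jazQ* and 23332 to 29036 CPM in *jazQ phyB*. *LHB1B1* fell most, from 1508, 1872 and 1103 (*jazQ*) to 232, 280.0 and 196 CPM (log2 fold change −2.66, SE 0.19, adjusted p = 1.56e-06). *LHB1B2* fell from 4069, 4371 and 3500 to 1983, 2230 and 1741 CPM (−1.0, adjusted p = 2.55e-05), and *CAB1*, at 8687, 9722 and 7814 CPM in *jazQ*, to 4705, 4824 and 4134 CPM (−0.94, adjusted p = 4.15e-05). These light-harvesting genes are close copies of each other, so the division of reads among them is uncertain, while their sum is not affected. The count of antenna genes was 8 without *jazQ* replicate 1.

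Photosystem subunits and the enzymes of chlorophyll synthesis were lower by less. Of 29 nuclear photosystem genes, 15 were called lower and none higher (median −0.39), where 4.15% of all genes were called lower. *PSAE-2*, a subunit of photosystem I, fell from 284, 293 and 263 to 162, 172 and 145 CPM (log2 fold change −0.81, adjusted p = 3.03e-05), and *PSBO1*, of the oxygen-evolving complex, from 2935, 3006 and 2701 to 2140, 2191 and 2103 CPM (−0.43, adjusted p = 0.000612). Of 25 genes of tetrapyrrole and chlorophyll synthesis, 16 were called lower and none higher (median −0.38). *PORB*, the light-dependent protochlorophyllide reductase, fell from 332, 356 and 305 to 185, 196 and 184 CPM (−0.82, adjusted p = 1.51e-05). *HEME1* fell by 0.74 and *HEMC* by 0.52 on the log2 scale, early steps of the same pathway. Of 16 genes of Rubisco and the Calvin cycle, 5 were lower and none higher (median −0.24), led by *GAPA*, a glyceraldehyde-3-phosphate dehydrogenase (2372, 2196 and 2387 against 1741, 1692 and 1789 CPM).

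The size of the photosynthesis groups rested on scaling and on single libraries more than their direction did. The medians stayed below 0 with DESeq2's size factors, upper-quartile scaling and log2(TPM + 1). On log2(TPM + 1), where the median of all genes was 0.10, the medians relative to it were −0.63 for the antenna, −0.39 for photosystem subunits, −0.36 for chlorophyll synthesis and −0.23 for the Calvin cycle, and the calls were 9, 2, 11 and 0. Photosystem calls fell to 5 without *jazQ* replicate 1, 7 without *jazQ* replicate 2 and 6 without *jazQ phyB* replicate 1 or 3. Calvin cycle calls fell to 2 without *jazQ* replicate 1 or 3 and to 3 without *jazQ phyB* replicate 3. Chlorophyll synthesis kept 12 to 15 calls when any 1 library was left out.

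**Figure D2:**
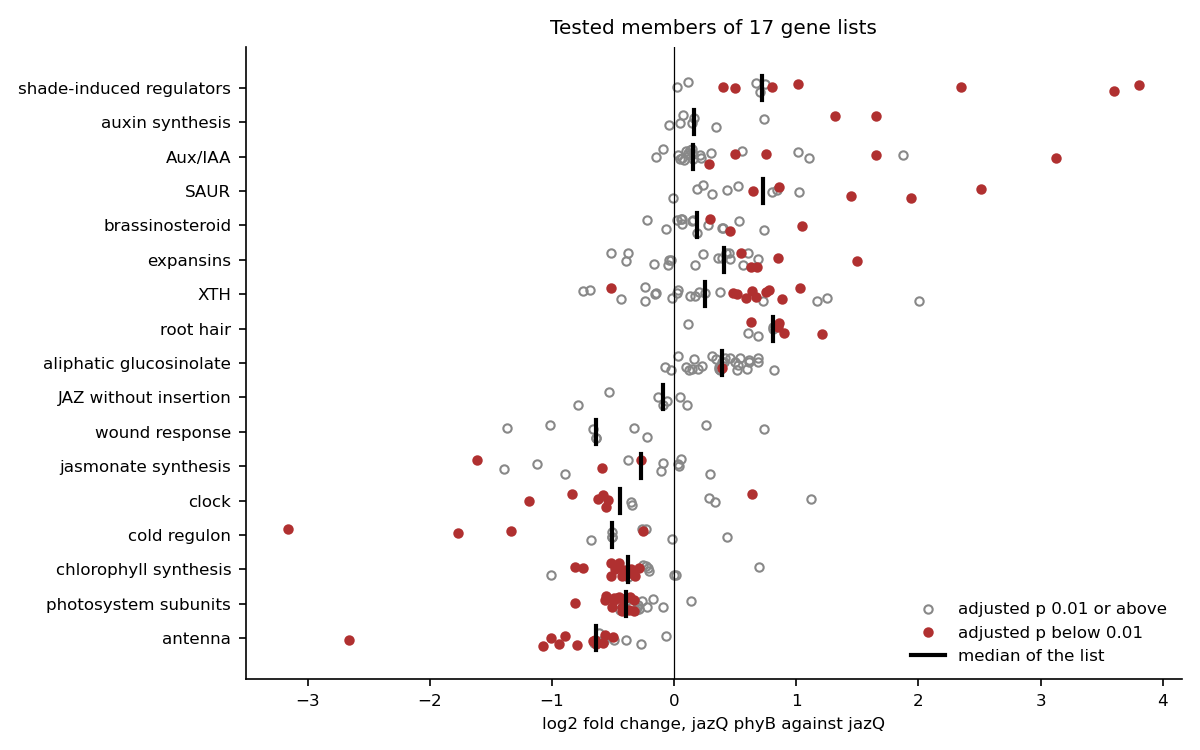
Log2 fold change of *jazQ phyB* against *jazQ* for each tested member of 17 gene lists, with 1 point per gene (filled red, adjusted p below 0.01, open grey, 0.01 or above) and a black bar at the median of the list. Shade, auxin-response, wall and root hair lists lie mostly to the right of 0 and the 3 photosynthesis lists to the left, with medians of 0.72 for shade regulators and −0.64 for the antenna.

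Some genes of jasmonate synthesis, conjugation and turnover were called. In jasmonate synthesis 3 of 13 tested members (23.1%) were called lower and none higher (median −0.27). Over all genes tested, 4.15% were called lower and 2.63% higher. Without overlap between genotypes 6 members were lower and 1 higher, where 16.1% and 15.4% of all genes were. *AOC2*, an allene oxide cyclase, fell from 263, 314 and 222 to 80.0, 99.4 and 81.7 CPM (log2 fold change −1.61, SE 0.13, adjusted p = 7.77e-06). *AOC1* to *AOC4* are close copies, and *AOC3* (0.03, adjusted p = 0.87) and *AOC4* (0.29, adjusted p = 0.0163) did not share this fall, so the division of reads among the copies is uncertain. The call for *AOC1* (−0.59, adjusted p = 0.00265) was lost without *jazQ* replicate 1 or 2 or *jazQ phyB* replicate 1. That for *OPR3* (−0.27, adjusted p = 0.00949) was lost in every alternative except an adjusted p below 0.05. The lipoxygenase genes *LOX2* (−0.90, adjusted p = 0.0127), *LOX3* (−1.13, adjusted p = 0.0166) and *LOX4* (−1.40, adjusted p = 0.186) did not overlap between genotypes yet did not pass. Among genes of jasmonate conjugation and turnover, *ST2A*, a sulfotransferase that inactivates a hydroxylated jasmonate, rose from 9.38, 4.87 and 9.71 to 21.9, 25.3 and 20.2 CPM (1.49, adjusted p = 0.000164), and *ILL6*, an amidohydrolase of jasmonate conjugates, fell from 19.6, 20.5 and 18.8 to 12.7, 11.3 and 12.1 CPM (−0.70, adjusted p = 0.000296).

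Few of the repressors, factors and outputs of the pathway passed the test. None of 7 *JAZ* genes without an insertion was called, the nearest being *JAZ5* (4.28, 4.74 and 3.43 against 2.90, 2.35 and 1.87 CPM, log2 fold change −0.79, adjusted p = 0.0268). None of 6 *MYC* and *JAM* genes was called, with *JAM1* the nearest (−0.46, adjusted p = 0.0238). None of 9 wound-response genes was called either (median −0.64), though their levels varied among the *jazQ* libraries. *VSP2*, a vegetative storage protein, stood at 51.1, 37.5 and 8.57 CPM in *jazQ* and 20.7, 16.4 and 10.9 CPM in *jazQ phyB* (−1.01, adjusted p = 0.134), and *RNS1*, the member with the lowest adjusted p, gave 0.74 (adjusted p = 0.0673). In both genotypes replicate 3 was the lowest library for *VSP2*. In the jasmonate-ethylene branch 1 of 4 tested genes was higher, the chitinase gene *HCHIB* (8.97, 7.38 and 6.43 against 10.8, 11.2 and 12.8 CPM, adjusted p = 0.00987), which lost its call without each library except *jazQ* replicate 1. None of 13 salicylate genes passed (median −0.05).

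Among genes for defense metabolites, few of those for glucosinolate or triterpene synthesis passed the test. Of the glucosinolate breakdown list 30.8% were called, and of the anthocyanin and flavonoid list 17.6%, where 6.79% of all genes were. Of 29 aliphatic glucosinolate genes, 27 lay above 0 (median log2 fold change 0.39) and without overlap between genotypes 15 were higher and 1 lower, where 15.4% and 16.1% of all genes were, but 1 was called. This was *MYB28*, the main regulator of the pathway (46.4, 45.9 and 50.3 against 60.6, 68.1 and 59.0 CPM, log2 fold change 0.40, adjusted p = 0.00988), and it lost its call without each library in turn. In WT the median of these 29 genes was −0.13, and the interaction was called for none of them. None of 15 indole glucosinolate genes passed (median 0.12). Among 13 genes of glucosinolate breakdown, the nitrile-specifier genes *NSP4* (0.57, adjusted p = 0.000402) and *NSP3* (0.80, adjusted p = 0.000841) were higher and the myrosinase genes *TGG1* and *TGG2* lower, the call for *TGG2* being lost without each library except *jazQ* replicate 3. *MYB90*, an activator of anthocyanin synthesis, rose from 0.347, 0.812 and 0.50 to 4.26, 3.11 and 2.66 CPM (2.62, SE 0.38, adjusted p = 0.000449). In the same list of flavonoid genes *TT4*, chalcone synthase, fell from 366, 332 and 317 to 216, 233 and 211 CPM (−0.62, adjusted p = 0.000259). None of 6 triterpene genes of roots passed (median 0.45).

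Core clock genes moved in both directions. Of 12 tested members, 1 was called higher and 6 lower (median −0.45), where 2.63% and 4.15% of all genes were. *LHY*, a morning-phased repressor, rose from 241, 226 and 243 to 374, 360 and 369 CPM (log2 fold change 0.63, SE 0.08, adjusted p = 0.000164). *TOC1*, its evening-phased counterpart, fell from 107, 100 and 111 to 69.3, 65.9 and 71.0 CPM (−0.62, SE 0.07, adjusted p = 5.09e-05), and *PRR3*, a relative of *TOC1*, from 16.7, 18.4 and 19.6 to 7.16, 8.46 and 8.52 CPM (−1.18, SE 0.13, adjusted p = 8.6e-05). The pseudo-response regulators *PRR5* (−0.83) and *PRR7* (−0.56) and the evening complex genes *ELF4* (−0.58) and *LUX* (−0.54) were the other calls. *CCA1*, the close relative of *LHY*, gave 0.34 (adjusted p = 0.0225) and *RVE8* 0.29 (adjusted p = 0.0149), both without overlap between genotypes. The day-phased *PRR9* gave the largest value above 0 in the list, from 5.09, 3.45 and 2.5 to 10.3, 7.05 and 6.77 CPM (1.12, adjusted p = 0.0146), without overlap, and was not called. *GI* (−0.35, adjusted p = 0.0208) and *ELF3* (−0.35, adjusted p = 0.0283) were not called either. Seedlings were in continuous light, and the hour of harvest is not given in the sources used here, so a shift of phase and a change of level cannot be told apart.

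Outputs of the clock moved as well. *FKF1*, an evening-phased blue light receptor of the photoperiod pathway, fell from 11.2, 13.7 and 11 to 5.89, 7.58 and 5.56 CPM (log2 fold change −0.92, adjusted p = 0.000735), while *FT*, downstream in that pathway, rose as given above. *COR27*, a cold and clock gene, fell from 14.7, 17.1 and 16.5 to 4.30, 7.93 and 7.19 CPM (−1.33, SE 0.16, adjusted p = 0.00013). In the cold regulon 4 of 12 tested members were lower and none higher (median −0.51), where 4.15% of all genes were called lower. *KIN2* stood at 73.9, 94.6 and 54.9 against 21.7, 26.9 and 16.8 CPM (−1.77) and *KIN1* at 7.76, 14.4 and 5.78 against 1.36, 1.12 and 0.544 CPM (−3.16), the largest of the named falls. *KIN1* and *KIN2* are adjacent copies, and the division of reads between them is uncertain. None of 23 heat shock genes passed (median 0.08). Other large falls were in AT5G23240, annotated as a DnaJ-domain protein (47.5, 60.0 and 42.9 against 8.00, 15.8 and 11.8 CPM), and *QQS*, a gene of starch content (3.65, 3.65 and 3.28 against 1.19, 0.646 and 0.605 CPM). AT1G14250, annotated to the GDA1/CD39 nucleoside phosphatase family, fell from 34.5, 50.1 and 22 to 5.62, 5.99 and 2.54 CPM (−2.89, adjusted p = 4.15e-05). *PGL5*, annotated as a 6-phosphogluconolactonase, fell from 30.6, 22.6 and 19.6 to 6.98, 6.99 and 4.96 CPM (−1.94, adjusted p = 5.97e-05), and AT1G66100, annotated as a thionin, from 84.6, 117 and 51.5 to 27.2, 25.9 and 14.2 CPM (−1.90, adjusted p = 0.00141). The rest of the 12 largest falls, beside an antenna gene given earlier, were AT4G33467 (−2.66), AT5G62240 (−2.34), the annotated pseudogene *RLP18* (−2.28), AT2G32550 (−1.97) and AT1G12030 (−1.90). Among these, the call for AT4G33467 was lost without *jazQ* replicate 1 or 2 and without *jazQ phyB* replicate 1 or 3, that for AT1G12030 without *jazQ* replicate 1 and without *jazQ phyB* replicate 1 or 2, and that for *RLP18* without *jazQ phyB* replicate 1.

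**Figure D3:**
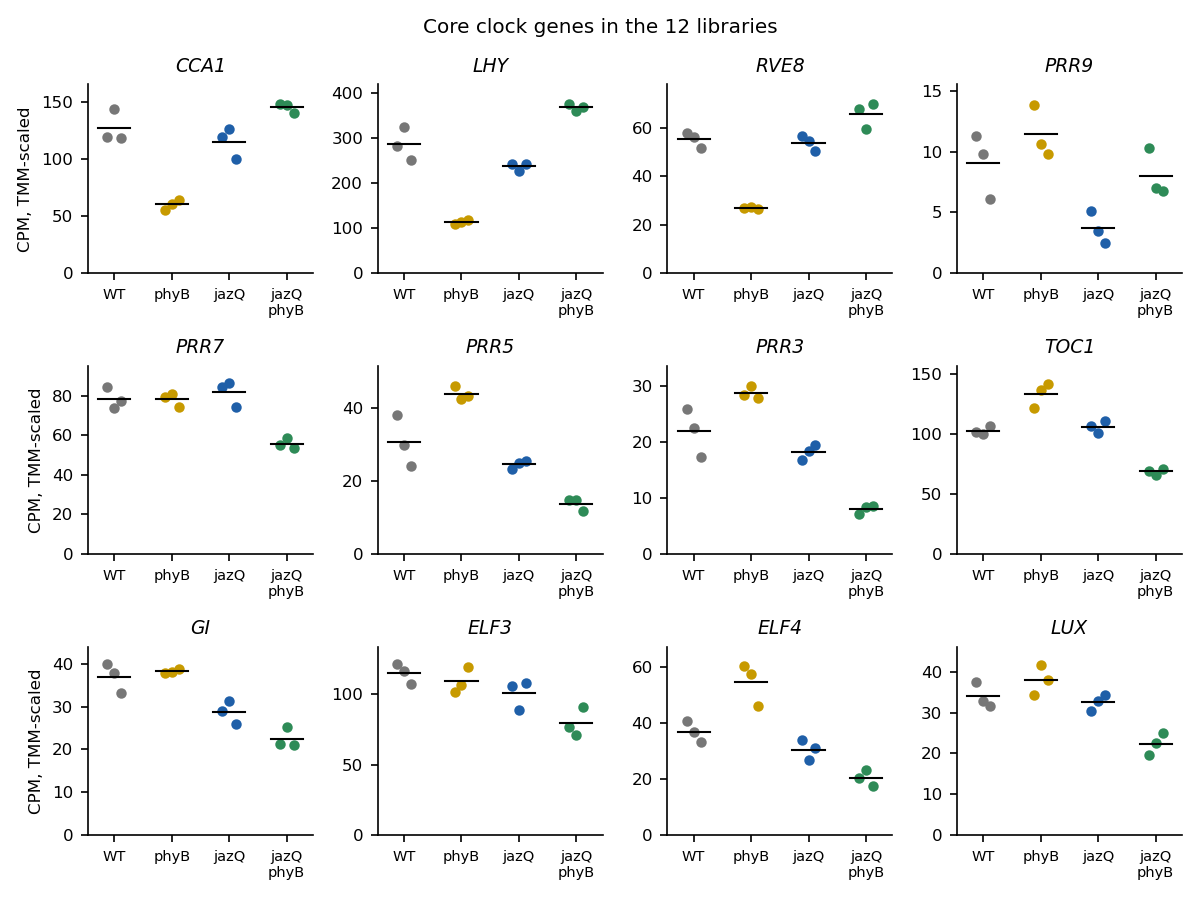
CPM after TMM scaling (linear axes from 0) of the 12 core clock genes in all 12 libraries, with 1 point per library and a bar at the mean of 3. In *LHY* the *phyB* points lie below WT while the *jazQ phyB* points, at 360 to 374 CPM, lie above *jazQ*, and *TOC1* shows the reverse.

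Whether the mutation acted alike with and without the insertions was tested by the interaction, the log2 fold change of *jazQ phyB* against *jazQ* minus that of *phyB* against WT. The 2 comparisons share no library. Seed storage and oleosin genes summed to 8.38 to 66.7 CPM in *phyB* and 1.9 to 3.6 CPM in WT. Their sums were 2.14 to 2.55 CPM in *jazQ* and 1.63 to 1.94 CPM in *jazQ phyB*. Chloroplast genes took 0.553 to 0.988% of the counts in WT and 0.273 to 0.348% in *phyB*. The part of such differences between libraries in the interaction was not tested. Loss of phyB changed 2465 genes in WT (11.8%, with 4.7% higher and 7.06% lower), and 476 genes were called the same way in both backgrounds. These made up 33.5% of the 1422 genes called in *jazQ* (31.1 to 36.0%, Wilson 95% interval, which covers the number of genes only) and 19.3% of the 2465 called in WT. Among genes called higher in *jazQ phyB*, 160 of 552 were also higher in *phyB*, and 19 were lower. Among those called lower, 316 of 870 were also lower, and 46 were higher. By sign alone, called in WT or not, 76.6% of the higher and 72.2% of the lower genes went the same way in WT. The interaction itself was called for 756 genes (3.61%, with 1.9% positive and 1.7% negative), in 583 of which the effects had opposite signs. Choosing genes by a large difference favours opposite signs, and 93 of the 756 were called in both backgrounds. Of the 1422 genes, the interaction was called for 85 of the 552 higher and 214 of the 870 lower. The interaction count fell to 359 without *jazQ phyB* replicate 1, 360 without *phyB* replicate 2, 423 without *phyB* replicate 1, 454 without WT replicate 2 and 469 without *phyB* replicate 3. DESeq2 gave 1137.

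Several of the genes that rose did so by more in *jazQ*. Naming genes by the size of their rise in *jazQ* favours a larger effect there. Over the 756 genes with a called interaction, the effect was farther from 0 in *jazQ* than in WT for 293 (38.8%). *HFR1* rose by 3.6 on the log2 scale in *jazQ* and by 2.53 in WT (interaction 1.07, adjusted p = 0.00125), and *FT* by 3.25 and 1.58 (interaction 1.67, adjusted p = 0.00109). *CKX1* rose by 2.62 and 0.86 (interaction 1.75, adjusted p = 0.00352, lost without *jazQ* replicate 1, *jazQ phyB* replicate 1 and 4 of the other 6 libraries). *EXPA8* rose by 1.5 in *jazQ* and stood at 0.08 in WT (interaction 1.42, adjusted p = 0.00152). *IAA29* rose by 3.12 and 2.00 (interaction 1.13, adjusted p = 0.00958), a call that was lost when any library except WT replicate 3 was left out. *ST2A* rose in both but less in *jazQ* (1.49 against 3.03, interaction −1.54, adjusted p = 0.00307, lost without WT replicate 2, *phyB* replicate 2, *jazQ* replicate 1 or *jazQ phyB* replicate 1). For *PIL1*, *ATHB-2*, *HAT2*, *YUC8*, *IAA19*, *SAUR22* and *ACS8* the interaction was not called (adjusted p from 0.0602 to 0.88).

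The clock genes differed most plainly between backgrounds. *LHY* rose in *jazQ* by 0.63 and fell in WT by 1.34 on the log2 scale (interaction 1.97, adjusted p = 5.02e-07). The interaction was also positive for *CCA1* (1.42, adjusted p = 2.55e-05) and *RVE8* (1.32, adjusted p = 9.34e-06). It was negative for *PRR3*, *PRR5*, *ELF4*, *TOC1*, *LUX* and *PRR7*, from −1.57 to −0.55. *TOC1* fell by 0.62 in *jazQ* and rose by 0.38 in WT (interaction −1.0, adjusted p = 2.55e-05), *FKF1* fell by 0.92 and rose by 0.67 (interaction −1.59, adjusted p = 0.000218), and *COR27* fell by 1.33 and rose by 1.17 (interaction −2.51, adjusted p = 1.68e-05). In the antenna list the interaction was called for 1 of 20 genes, *LHCB4.3*, where it was called for 3.61% of all genes. The antenna median was −1.11 in WT, with 20 genes called lower, and −0.64 in *jazQ*, with 13. In the photosystem list it was called for 2 of 29, with medians of −0.81 and −0.39 and 27 and 15 genes called lower. For Rubisco and the Calvin cycle it was positive for 3 of 16, with 12 and 5 called lower. In chlorophyll synthesis it was positive for 3 of 25 and negative for 1, with 12 and 16 called lower.

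**Figure D4:**
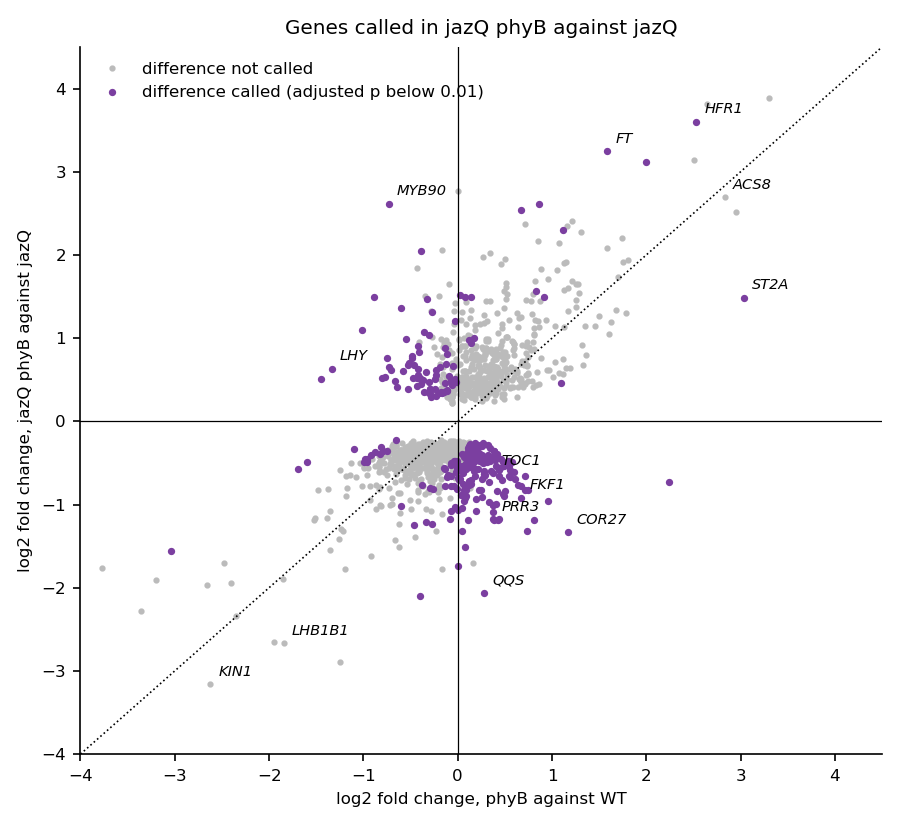
Log2 fold change of *jazQ phyB* against *jazQ* (vertical) and of *phyB* against WT (horizontal) for genes called in the former, 1418 drawn and 4 outside the axes, with purple for a called interaction, grey otherwise and a dotted line where both are equal. *LHY* lies upper left and *TOC1*, *FKF1*, *PRR3* and *COR27* lower right, where the signs differ, and *HFR1* and *FT* lie above the line on the right.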

How the data were processed

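RNA of 12 whole-seedling pools (3 each of WT, *jazQ*, *phyB* and *jazQ phyB*) was sequenced, and genotypes were taken from the labels. Per the submitters' processing notes the authors assigned reads to TAIR10 with RSEM 1.2.11. They deposited an expected count per gene and library, checked to be whole numbers without normalization (33602 genes, 100% of values whole, 0 columns of values and 0 rows without a gene left out). The authors also deposited TPM, in which RSEM divides by transcript length and scales each library to 1 total.

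Counts were TMM-scaled, filtered with filterByExpr (minimum count 10) and fitted with edgeR 4.0.16 (R 4.3.3) in 1 quasi-likelihood model with a mean per genotype and no block. Genes at a Benjamini-Hochberg adjusted p below 0.01 were called. WT and *phyB* libraries thus share in the estimate of spread. Alternatives were DESeq2 1.42.0, upper-quartile scaling, a fit of the compared genotypes alone, no filter, at least 10 counts in every library, limma 3.58.1 on log2(TPM + 1) and log2(TPM + 0.1), a replicate block, calls of at least 2-fold, a threshold of 0.05 on the adjusted p, and each library left out. The code was tested on simulated counts.

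The comparison and the gene lists were chosen with earlier results of these data known, so counts over lists describe and are no independent support. The rule for named genes took the mutated genes, the 12 largest rises and falls (mean of at least 1 CPM, no overlap), the 3 list members with the smallest adjusted p (all tested members of the shade, auxin synthesis, jasmonate synthesis and PIF lists; the nearest 1 where none passed) and the 4 largest interactions each way. Other members, the remaining clock genes among them, were named after their values were seen. Symbols and gene starts came from RefSeq TAIR10.1, matched by locus for 32835 genes. The labels call libraries replicates of separate pools, and p-values measure the spread between these. Replicate numbers were not taken to pair the libraries, although each library correlated best with its own number.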

Additional observations from a re-analysis of the deposited data

Results flagged for a closer look

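The response to loss of phyB differed between the *jazQ* and WT backgrounds, by an interaction at an adjusted p below 0.01 in edgeR, for 756 genes. Differences between the lines other than these mutations would enter the same values and cannot be told apart. The values that follow are interactions on the log2 scale, positive where the change was more upward in *jazQ*.

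Positive values were found for *MYB90* (3.35), *LHY* (1.97), *ST4C* (1.88), *CKX1* (1.75), *FT* (1.67), *EXPA8* (1.42), *MRH6* (1.24), *HCHIB* (1.18), *IAA29* (1.13), *HFR1* (1.07), *KDR* (0.87) and *GAPA-2* (0.43). Negative values were found for *OPR3* (−0.54), *PORB* (−0.55), *ILL6* (−0.85), *BBX22* (−0.95), *TOC1* (−1.0), *ST2A* (−1.54), *PRR3* (−1.57), *FKF1* (−1.59), AT5G23240 (−1.70), *QQS* (−2.35), *COR27* (−2.51), AT5G60250 (−3.10), *SADHU3-2* (−3.54), AT2G01008 (−3.79) and *BGLU19* (−4.23). For AT2G01008, *SADHU3-2* and AT5G60250 loss of phyB gave log2 fold changes of 3.26, 3.9 and 2.99 in WT, and −0.53, 0.36 and −0.11 in *jazQ*.

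In 4 further genes a genotype had a mean of 3 counts or fewer per library, so the adjusted p is given without a fitted size: *PR1* (0.008), AT4G33720 (0.00754), AT1G33950 (0.00531) and AT3G28510 (5.86e-05), all from edgeR. *PR1*, a salicylate marker, was at 0, 0.0742 and 0.16 CPM in *phyB* and 33.8, 11 and 10.8 CPM in WT, and at 12.7, 3.29 and 1.15 CPM in *jazQ phyB* and 4.57, 1.01 and 8.78 CPM in *jazQ*. The calls for *IAA29*, *GAPA-2* and *MRH6* were lost in 13 to 15 of the alternatives run, and those for AT4G33720, *PORB*, *PR1*, *ST4C*, AT1G33950 and *CKX1* in 7 to 11.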

How the results depend on the processing

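No gene called in *jazQ phyB* against *jazQ* changed sign under any alternative run, all of which use the same libraries. Against 1422 calls (552 higher, 870 lower), a fit of these genotypes alone, in which WT and *phyB* libraries have no part, gave 846 (306 and 540). Lost in that fit were the calls for *YUC9*, *KDR*, *ACS5*, *ARR16*, *CKX5*, *BES1*, *ROT3* and *JAZ10*. So were those for *CASP1*, *TGG2*, *HCHIB*, *OPR3*, AT4G33720, AT4G33467 and AT1G12030. An adjusted p below 0.05 gave 3065 (1338 and 1727), and calls of at least 2-fold gave 196 (131 and 65). The limma fits gave 994 higher and 341 lower on log2(TPM + 1), and 937 and 333 on log2(TPM + 0.1). The interaction count (756) was 1137 with DESeq2, 1980 at the looser threshold and 233 at 2-fold. The 134 list members called became 222 and 32 there. The share of calls made the same way in WT (33.5%) was 38.7% and 39.1% in the limma fits, 36.0% at the looser threshold and 27.6% at 2-fold. With 1 library left out, calls ran from 643 to 1194 (244 to 455 higher, 399 to 776 lower), list members from 80 to 120, the interaction from 359 to 755 and the share from 26.4 to 41.4%.

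The replicate block gave 1421 calls (559 higher, 862 lower), 697 interactions and a share of 33.8%. Under it *GH3.3*, *HCHIB* and *OPR3* and the interactions of *IAA29*, *MRH6*, *GAPA-2*, *PORB* and AT4G33720 were not called, while *PAR1*, *LOX2*, *AOC4* and *HSP81-2* were, all at the same threshold. Libraries with the same number deviated together with correlations of 0.0566, 0.177 and 0.262, not all above 0.1, so the numbers were not taken to pair them, although each library correlated best with its own number.

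With 3 libraries per genotype, genes near the floor of 3 counts, such as *PIL1* and *MRD1* in *jazQ*, have imprecise folds.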
